A study of Saccharomyces cerevisiae with 49 samples.

Results

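The genes described here encode the machinery that divides a budding yeast cell: the actomyosin ring proteins MYO1, IQG1, HOF1 and CYK3, the septins CDC3, CDC10, CDC11, CDC12 and SHS1, and the septin kinase GIN4. They were taken by gene symbol from the deposited table, where each of the 10 genes had 1 probe, out of 6228 genes or unnamed probes in all. The rule that took them used no measured value, but earlier results of these data were known when the 10 genes were chosen. They were followed on 49 dual-colour oligonucleotide arrays, in which Cy5 carried RNA of synchronized Saccharomyces cerevisiae and Cy3 carried RNA of unsynchronized cells in mid-log growth. Each value is a log ratio of synchronized over mid-log cells, read here as log2.

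The 3 time courses were 1 alpha-factor culture and the cdc28 cultures B and E. The alpha-factor culture was BY4741 bar1-, which lacks the protease that destroys the pheromone. It was held in G1 by alpha factor at 1 ug/ml for 3 h, filtered, rinsed and put in fresh YPD, and sampled on 17 arrays over 150 min. The cdc28 cultures were BY4741 carrying a temperature-sensitive allele of CDC28, the main cell cycle kinase gene, which the series text names cdc28-13. They were held at 37 °C for 3 h and then cooled, and were sampled on 16 arrays each, over 225 min in B and 160 min in E. All cells came from the BY4741 background and all were compared with mid-log RNA labelled as coming from the same strain. Each course is 1 culture, so successive arrays are times and not replicates, and its p-values measure scatter around a fitted curve. Strain, kind of arrest, temperature and culture cannot be told apart between alpha factor and cdc28.

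Septins are filament-forming GTP-binding proteins that assemble at the site of the coming bud and later form a collar at the neck between mother and daughter. The collar recruits myosin II and other proteins of the contractile ring, which closes after the chromosomes have separated while a septum of cell wall is laid down behind it. Cytokinesis therefore joins a scaffold built early in the cycle to a ring that is used at its end.

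Between 4189 and 6110 features had a value on each array, and array medians lay between -0.0710 and 0.0215 before each array was centred on its median. The 135 min array of culture B stood apart. It had the fewest values of all arrays, and its correlation with the mean of the arrays before and after it was 0.339, against 0.606 to 0.965 for every other array with a neighbour on each side. Results of culture B are therefore also given without it. As a check of the labels, the pheromone-induced agglutinin gene AGA1 stood at 5.37 at 0 min after alpha factor, against 1.47 in culture B and -0.29 in culture E. This check takes the ratio as synchronized over mid-log cells. BAR1 had a value on 0 arrays of the bar1- culture, against 16 in each cdc28 culture, but so did STE2, a gene not named as deleted, so this does not check the label. Of the 4 listed genes specific to alpha cells, limma called 0 periodic in any course (0 of 1 tested for alpha factor, 0 of 4 for each cdc28 culture, with 0 at an unadjusted p under 0.05). Of the 5 meiosis and sporulation genes 1 of 2 tested was periodic in the alpha-factor course, NDT80, and 0 of 5 in either cdc28 culture (0 at an unadjusted p under 0.05). NDT80 was picked out after its value was seen. Of the 4 listed genes specific to a cells, 2 of 3 tested were periodic for alpha factor, 2 of 4 for culture B and 0 of 4 for culture E. The shares of all features were 27.8%, 13.7% and 3.71%. A periodic call does not tell the cell type. Values are ratios to mid-log cells, so they do not show whether any of these genes were silent.

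The first question was when in the cycle each gene was expressed. For each course a cosine wave with a linear trend was fitted at 1 period, taken from 41 cell cycle marker genes that hold none of the 10. The period was 54 min for alpha factor, 122 min for culture B and 95 min for culture E. The courses thus covered 2.78, 1.84 and 1.68 cycles. A gene is called periodic where limma's joint F-test of the wave gave a Benjamini-Hochberg adjusted p under 0.05 over all features tested. The amplitude is the height of the fitted wave above its middle, in log2 units. Peak positions are given as the share of a cycle after the mean peak of the periodic G1/S markers, which fell at 12.1, 35.3 and 44.3 min.

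After alpha factor 8 of the 10 genes were periodic, against 27.8% of all 5359 features tested. In culture B 6 of 10 were periodic, against 13.7% of 5598, and in culture E 3 of the 9 tested, against 3.71% of 5717. HOF1 had a value on 12 of the 16 arrays of culture E, below the 80% required, and was not tested there. The median amplitude of the genes was 0.454, 0.403 and 0.276, against 0.176, 0.172 and 0.139 over all features. GIN4 was periodic in all 3 courses. CDC3 and SHS1 passed the test in none of the 3. Without the 135 min array of culture B the count there was 8 of 10, with IQG1 and CYK3 added, against 17.8% of all features. Without the 160 min array of culture E, 5 of 9 passed, against 4.9% of all features. Without its 90 or its 100 min array 2 of 9 passed, against 3.51% and 2.54%. With a period 10% shorter the counts fell to 5 after alpha factor, 3 in B and 0 in E, against 8.9%, 7.82% and 0.192% of all features.

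**Figure D1:**
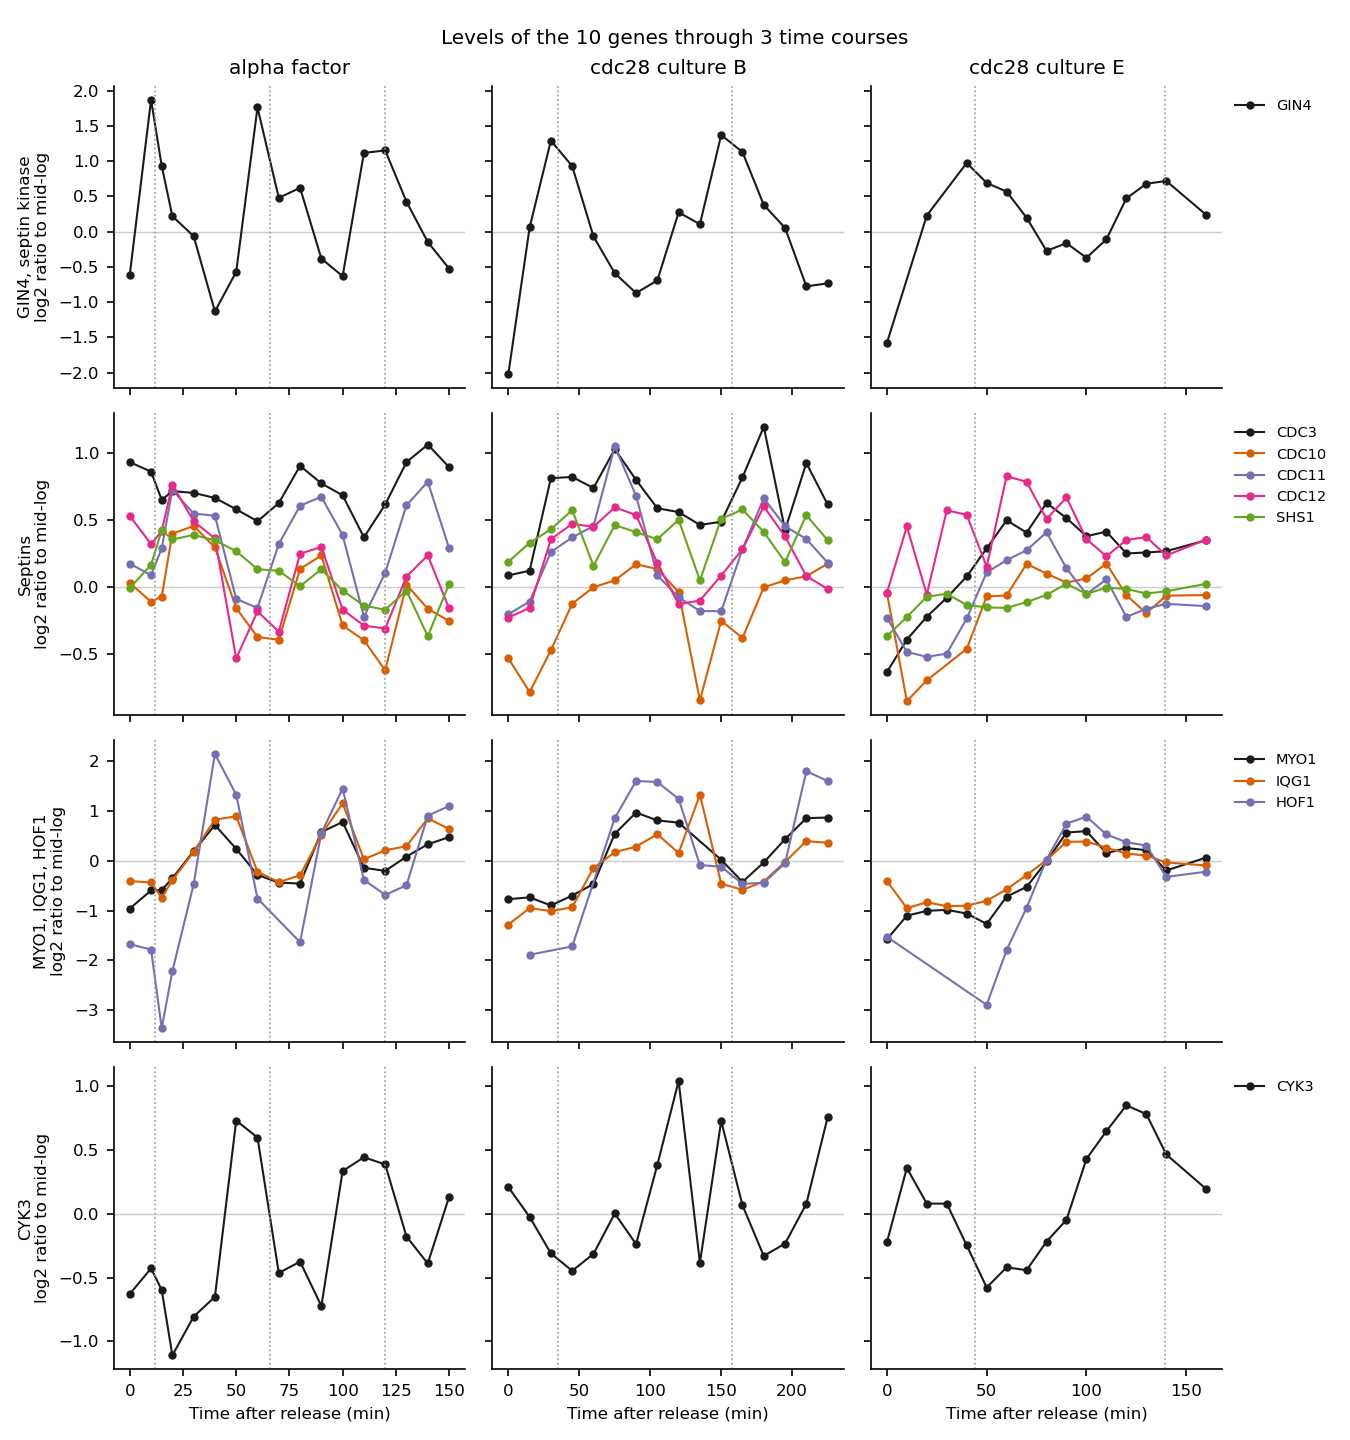
Log2 ratio to mid-log cells (vertical axes) against minutes after release (horizontal axes) for the 10 genes, with a column for each course and a row for each group of genes. Each point is 1 array, lines join neighbouring values, and dotted lines mark the mean G1/S marker peak and its repeats at the fitted period. GIN4 is high at the dotted lines, HOF1 and MYO1 are high between them, and SHS1 stays within 0.793 log2 units in every course.

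GIN4 (YDR507C) encodes a kinase of the bud neck that phosphorylates septins and takes part in building the septin collar. Its fitted peaks came first when each cycle is counted from the mean G1/S marker peak. After alpha factor its lowest, median and highest levels were -1.13 at 40 min, 0.22 and 1.87 at 10 min. In culture B they were -2.02 at 0 min, 0.06 and 1.37 at 150 min. In culture E they were -1.58 at 0 min, 0.23 and 0.98 at 40 min, with no value at 10 and 30 min. The span of highest over lowest array was thus 8.02-fold, 10.5-fold and 5.87-fold.

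The peak returned in each cycle. After alpha factor GIN4 reached 1.87 at 10 min, 1.76 at 60 min and 1.15 at 120 min, and in culture B 1.29 at 30 min and 1.37 at 150 min. Its amplitude was 1.05 ± 0.17 (SE, 17 arrays) after alpha factor, 1.15 ± 0.17 (16 arrays) in culture B and 0.73 ± 0.12 (14 arrays) in culture E. The limma adjusted p were 0.000782, 0.000678 and 0.0104. Its fitted peaks at 12.2 ± 1.38, 36.4 ± 2.83 and 44.5 ± 2.50 min (SE) lay 0.332%, 0.883% and 0.143% of a cycle after the mean G1/S marker peak. In every course these offsets were smaller than the standard error of the peak. Among the genes with a fitted peak that passed the test, GIN4 lay closest to the G1/S markers.

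The core septins followed. Cdc3, Cdc10, Cdc11 and Cdc12 are the subunits of the rod-shaped complex from which septin filaments are made. Where periodic, their fitted peaks fell between 24.3% and 38.1% of a cycle after the G1/S markers. They lay later than the mean peak of the 8 histone genes, which mark S phase and peaked between 14.8% and 19.2%, and earlier than that of the G2/M markers, at 53.8%, 50.2% and 55.0%.

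CDC11 (YJR076C), for a septin at the end of the rod, had the lowest adjusted p of the 5 septins in each course. After alpha factor its lowest, median and highest levels were -0.23, 0.32 and 0.79, and its cycle maxima were 0.72 at 20 min, 0.67 at 90 min and 0.79 at 140 min. In culture B the levels were -0.21, 0.27 and 1.05, with maxima at 75 and 180 min. In culture E they were -0.53, -0.14 and 0.41, with the highest at 80 min. The amplitude was 0.42 ± 0.06 (SE, 17 arrays), 0.48 ± 0.07 (16 arrays) and 0.28 ± 0.07 (16 arrays). The adjusted p from limma were 0.000181, 0.000514 and 0.108, so that culture E did not pass.

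CDC10 (YCR002C), for the septin at the centre of the rod, was periodic in the same courses. Its lowest, median and highest levels were -0.63, -0.11 and 0.45 for alpha factor, -0.85, -0.02 and 0.17 for culture B, and -0.86, -0.06 and 0.17 for culture E. The lowest value of culture B came from its 135 min array. The amplitude was 0.36 ± 0.05 after alpha factor, 0.36 ± 0.08 in culture B and 0.22 ± 0.09 in culture E (SE; adjusted p from limma 0.000582, 0.0149 and 0.424). Without the 135 min array it was 0.29 in culture B, with an adjusted p of 0.0260. CDC10 had the latest fitted peaks of the 4 core septins, at 37.8%, 38.1% and 35.7% of a cycle. The order among the septins was not tested.

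CDC12 (YHR107C) had lowest, median and highest levels of -0.54, 0.23 and 0.76 for alpha factor, -0.23, 0.23 and 0.60 for culture B, and -0.06, 0.36 and 0.83 for culture E. Its amplitude of 0.32 ± 0.09 for alpha factor passed the test, as did 0.37 ± 0.06 for culture B (limma adjusted p = 0.0258 and 0.00148). In culture E the amplitude was 0.16 ± 0.09 (adjusted p = 0.583 in limma). The highest level of the first cycle was at 20 min, 75 min and 60 min. In culture E the course was uneven before that, with 0.45 at 10 min, -0.06 at 20 min and 0.57 at 30 min.

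CDC3 (YLR314C) passed in none of the courses as fitted. Its amplitude was 0.14 ± 0.06 after alpha factor, 0.28 ± 0.08 in culture B and 0.18 ± 0.09 in culture E, with limma adjusted p of 0.244, 0.0896 and 0.524. With quantile normalization it passed for alpha factor (0.21, adjusted p = 0.0282) and for culture B (0.32, 0.0172). It also passed for culture B without the 195 min array (0.34, 0.00960) and for culture E at the period of B (0.32, 0.00366). The fitted peaks at 34.3%, 23.6% and 26.2% of a cycle lay among those of the other core septins. The level of CDC3 in the synchronized cultures was above that of mid-log cells on 17 of 17 arrays for alpha factor, 16 of 16 for culture B and 12 of 16 for culture E. Cy5 carried the synchronized RNA on every array, so a steady offset cannot be told apart from an effect of the dye. The lowest, median and highest were 0.37, 0.70 and 1.06 for alpha factor, 0.08, 0.68 and 1.20 for culture B, and -0.64, 0.28 and 0.63 for culture E.

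SHS1 (YDL225W), for a septin that can take the place of Cdc11 at the end of the rod, showed no cycle that these arrays could resolve. Its amplitude was 0.08 ± 0.06, 0.05 ± 0.07 and 0.03 ± 0.04 (SE), with limma adjusted p of 0.526, 0.844 and 0.908. Its levels lay between -0.37 and 0.42 after alpha factor, between 0.05 and 0.58 in culture B, and between -0.37 and 0.02 in culture E. Highest over lowest array was 1.73-fold, 1.44-fold and 1.31-fold, the smallest span among the 10 genes in cultures B and E. SHS1 levels were above mid-log on 16 of 16 arrays in culture B and on 2 of 16 in culture E. Array names begin with yofG in culture B and with yoG in culture E, so culture cannot be told apart from this part of the name.

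MYO1, IQG1 and HOF1 formed the next group, with fitted peaks between 50.1% and 56.9% of a cycle after the G1/S markers in every course where they were tested. This is close to the G2/M markers, at 53.8 ± 7.61% after alpha factor, 50.2 ± 6.87% in culture B and 55.0 ± 6.04% in culture E (SD over 8, 8 and 4 periodic markers).

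MYO1 (YHR023W), for the myosin II heavy chain of the ring, had lowest, median and highest levels of -0.96, -0.14 and 0.78 for alpha factor, -0.90, 0.02 and 0.97 for culture B, and -1.58, -0.36 and 0.60 for culture E. Its maxima per cycle were at 40, 100 and 150 min after alpha factor and at 90 and 225 min in culture B. In culture E it was high at 90 and 100 min and at -0.52 or lower on the 8 arrays before 80 min. The amplitude was 0.49 ± 0.10 (SE, 17 arrays), 0.65 ± 0.11 (15 arrays) and 0.42 ± 0.10 (16 arrays), with limma adjusted p of 0.00418, 0.00346 and 0.0709. MYO1 had no value on the 135 min array of culture B.

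IQG1 (YPL242C), for the IQGAP protein that links actin to the ring, had lowest, median and highest levels of -0.74, 0.18 and 1.15 for alpha factor, -1.28, -0.08 and 1.33 for culture B, and -0.95, -0.19 and 0.39 for culture E. The amplitude of 0.55 ± 0.10 after alpha factor passed (limma adjusted p = 0.00207), as did 0.38 ± 0.07 in culture E (0.0190). In culture B it was 0.40 ± 0.18 and did not pass (adjusted p = 0.302 in limma). The highest value there, 1.33, was that of the 135 min array, next to 0.16 at 120 min and -0.46 at 150 min. Without that array the amplitude was 0.54 and the adjusted p 0.0107.

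HOF1 (YMR032W), for an F-BAR protein that joins ring closure to septum formation, had the largest swings of the 10 genes. After alpha factor its lowest, median and highest levels were -3.36 at 15 min, -0.48 and 2.15 at 40 min, a 45.5-fold span. In culture B they were -1.88 at 15 min, -0.05 and 1.80 at 210 min, and in culture E -2.89 at 50 min, -0.10 and 0.89 at 100 min. Its maxima after alpha factor were 2.15 at 40 min, 1.45 at 100 min and 1.10 at 150 min. The low end of the 45.5-fold span rests on 1 array, as HOF1 stood at -1.78 at 10 min and -2.22 at 20 min. The amplitude was 1.61 ± 0.24 (SE, 16 arrays) after alpha factor and 1.34 ± 0.21 (13 arrays) in culture B, rank 28 of 5359 and rank 37 of 5598 features. limma gave adjusted p of 0.000644 and 0.00273.

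Values of HOF1 were missing at 0, 30 and 60 min in culture B and at 10, 20, 30 and 40 min in culture E, next to times at which the measured values were low. With values required on 70% of the arrays, a setting chosen after seeing the data, HOF1 had an amplitude of 1.15 in culture E (12 arrays, limma adjusted p = 0.00397).

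CYK3 (YDL117W), for a protein that promotes septum formation at the ring, peaked last on the same count from the G1/S marker peak. In minutes after release its fitted peaks came before those of GIN4 after alpha factor (1.61 against 12.2 min) and in culture E (18.4 against 44.5 min). Its fitted peaks lay 80.6%, 69.6% and 72.7% of a cycle after the G1/S markers, near the M/G1 markers at 88.2%, 81.6% and 72.7% (8, 6 and 2 periodic markers). The lowest, median and highest levels were -1.11 at 20 min, -0.39 and 0.73 at 50 min after alpha factor. They were -0.45 at 45 min, -0.01 and 1.04 at 120 min in culture B, and -0.58 at 50 min, 0.08 and 0.85 at 120 min in culture E. After alpha factor CYK3 was above 0 at 50 and 60 min, again at 100, 110 and 120 min, and at 150 min. It is the one ring gene still high at 60 min, when MYO1 stood at -0.28, IQG1 at -0.22 and HOF1 at -0.76.

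The amplitude of CYK3 was 0.58 ± 0.10, 0.40 ± 0.12 and 0.50 ± 0.06 (SE), with adjusted p of 0.00195, 0.0908 and 0.00225 from limma. In culture E, where few genes passed, CYK3 ranked 7 of 5717 by p. In culture B its 135 min value of -0.38 stood between 1.04 at 120 min and 0.73 at 150 min, and without that array its amplitude was 0.53 with an adjusted p of 0.00348.

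**Figure D2:**
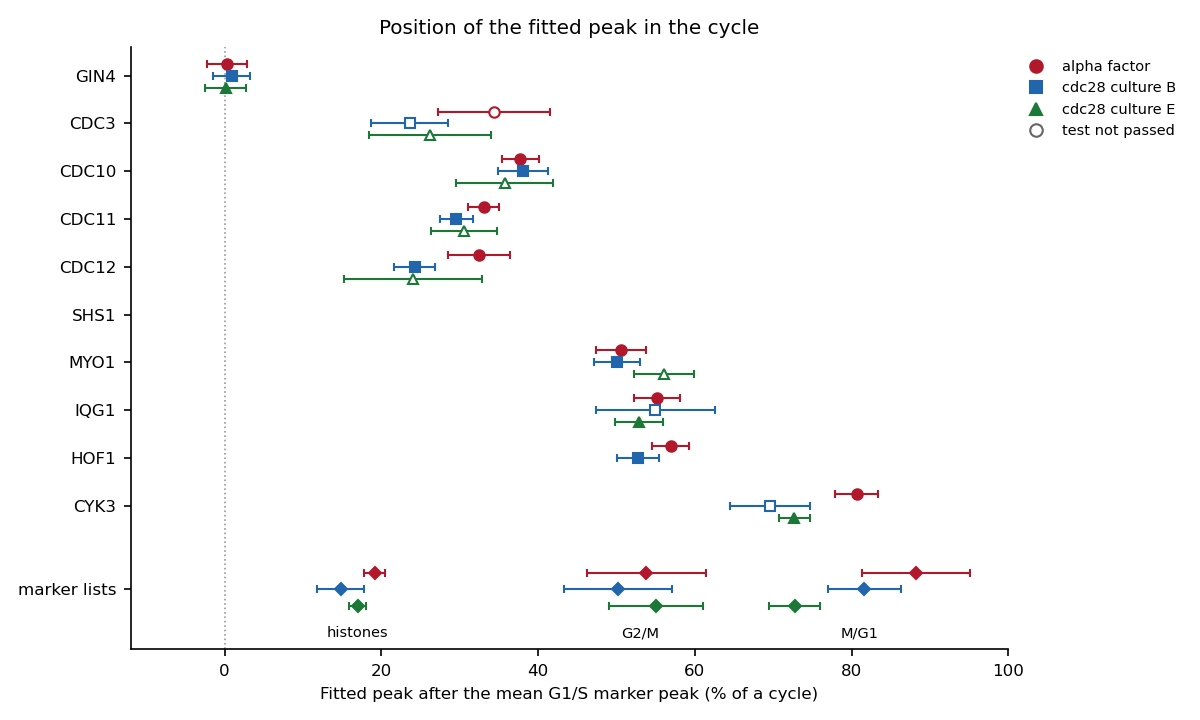
Fitted peak of each gene as a share of the cycle after the mean G1/S marker peak (horizontal axis, %), with a row for each gene and the 3 courses in colour. Bars on gene points are 1 SE, diamonds in the lowest row are marker list means with bars of 1 SD over genes, and open symbols did not pass the test. GIN4 lies within 0.883% of 0, the core septins at 23.6% to 38.1%, MYO1, IQG1 and HOF1 at 50.1% to 56.9%, and CYK3 at 69.6% to 80.6%; SHS1 is left out for its small amplitude.

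Counted from the G1/S markers, the sequence was GIN4, core septins, MYO1 with IQG1 and HOF1, then CYK3 in all 3 courses. This includes fits that did not pass the test, and HOF1 was not fitted in culture E. Culture E covered 1.68 cycles, and its fits of MYO1 and IQG1 held linear trends of 1.36 and 0.90 per 100 min. The fitted peak of MYO1 there, at 2.59 min, fell near its lowest measured level, -1.58 at 0 min, while its highest was at 100 min. Without a trend IQG1 and CYK3 did not pass in culture E. The positions of the cdc28 cultures and of alpha factor were compared in 1 fit over 49 arrays, with each course at its own period and time counted from its own G1/S marker peak. limma called 0 of 9 genes different between alpha factor and culture B, 0 of 9 between alpha factor and culture E, and 0 of 9 between cultures B and E. The shares of all 4927 features called were 0.0203%, 0.0609% and 0%, and 392, 707 and 437 features had an unadjusted p under 0.05, among them 0, 0 and 0 of the 9 genes. CYK3 had the lowest p of the 9 between alpha factor and culture B, with a fitted peak 11.1% of a cycle later after alpha factor (unadjusted limma p = 0.0550, adjusted p = 0.621). These tests do not show that the profiles are alike. Leaving out the 135 min array of culture B also gave 0 of 9 in each pair.

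**Figure D3:**
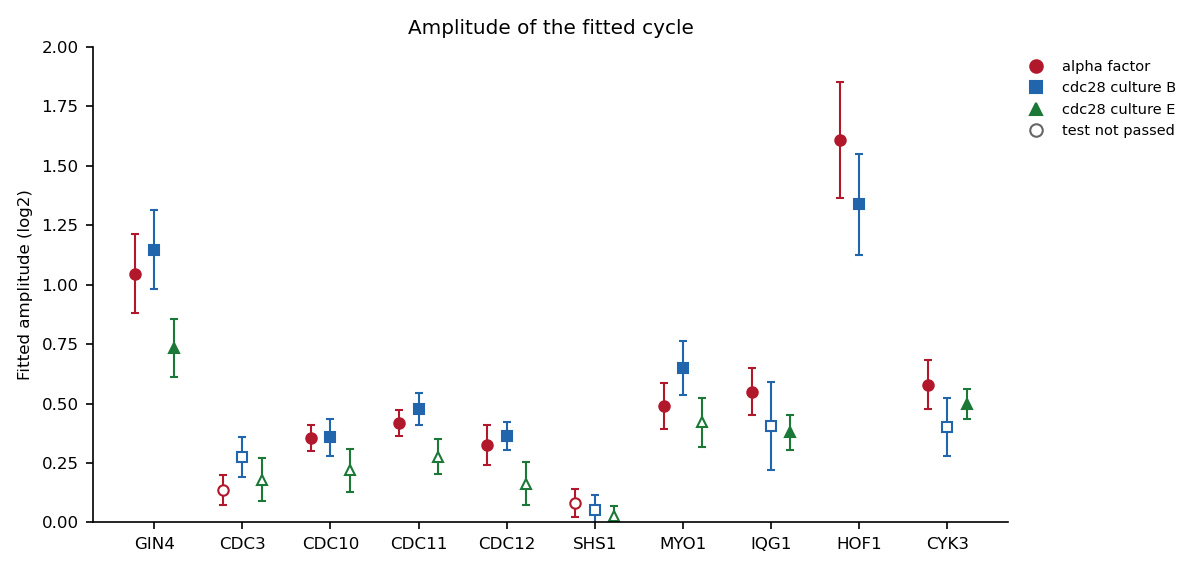
Amplitude of the fitted wave (vertical axis, log2 units) for each gene in the 3 courses, with bars of 1 SE. Open symbols did not pass the test and HOF1 has no point in culture E; HOF1 and GIN4 have the largest amplitudes, from 0.73 to 1.61, and SHS1 the smallest, at 0.08 or less.

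The genes were also compared with each other over the arrays, after each gene's mean in each course was removed. These correlations describe time courses that share arrays and cell cycle time. MYO1, IQG1 and HOF1 had Pearson r of 0.851 to 0.901 in their 3 pairs (40 to 48 arrays), and 0.887 to 0.955 without the 135 min array of culture B. CDC3, CDC10, CDC11 and CDC12 had 0.517 to 0.715 in their 6 pairs (48 or 49 arrays). Between these groups r ranged from -0.24 to 0.487 over 12 pairs. Within single courses the ring genes had r of 0.889 to 0.957 after alpha factor, 0.698 to 0.971 in culture B and 0.905 to 0.989 in culture E. The core septins varied more within single courses, with r of 0.326 to 0.808 for alpha factor, 0.515 to 0.888 for culture B and 0.232 to 0.803 for culture E. CYK3 ran against CDC11 and CDC12, with r of -0.53 and -0.64, and GIN4 against HOF1, with -0.54.

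**Figure D4:**
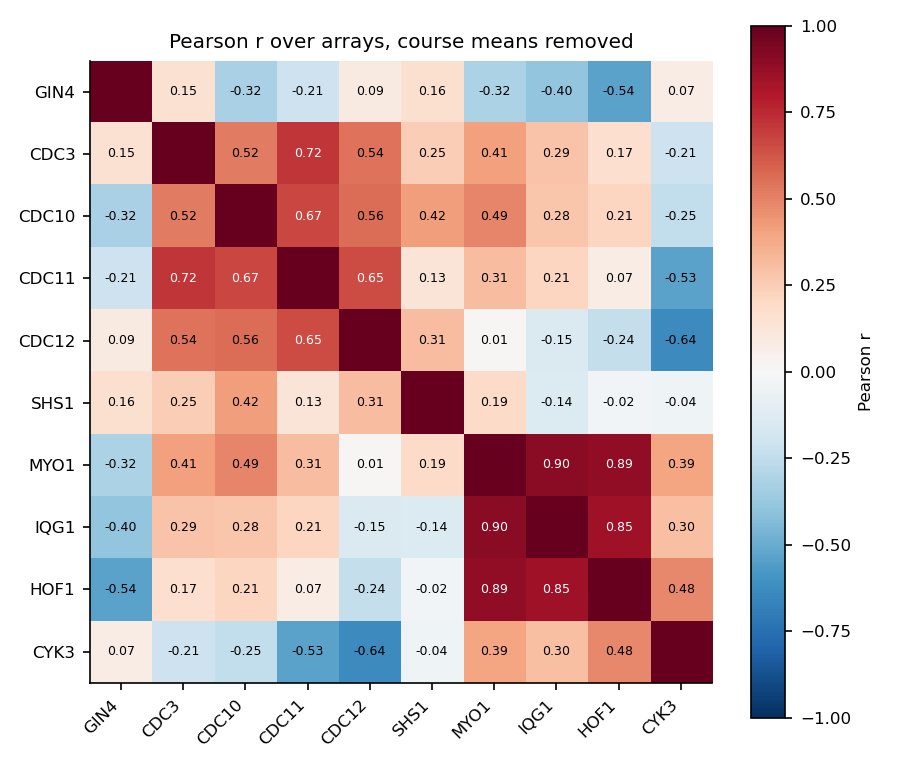
Pearson r between each pair of the 10 genes over the arrays where both have a value, after course means were removed (colour scale from -1 to 1, value in each square). MYO1, IQG1 and HOF1 form a block at 0.85 to 0.90 and the core septins one at 0.52 to 0.72, while CYK3 and CDC12 stand at -0.64.

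Over the whole table, the features most like each gene were found in the same way, over at least 40 arrays. MYO1 was most like CLB2, for the main mitotic cyclin (r = 0.948, 48 arrays), and then HST3, for a histone deacetylase (0.941). HOF1 was most like MMR1, for a protein that carries mitochondria to the bud (0.952, 41 arrays), and NBA1, for a bud neck protein (0.933). IQG1 was most like SRC1, for a protein of the inner nuclear membrane (0.923, 49 arrays), followed by an unnamed probe (0.921). CYK3 was most like AIM44, for a bud neck protein (0.931, 48 arrays), and PCL9, for a cyclin of the Pho85 kinase (0.892). GIN4 was most like TOS4 (0.955, 46 arrays) and MCD1, for a cohesin subunit (0.946).

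The septins had looser neighbours. CDC11 was most like HTZ1, for the histone variant H2A.Z (0.855), and GAS3 (0.849). CDC10 was most like CHS6 (0.829) and GTS1 (0.828), CDC3 like SIM1 (0.828) and the cell wall gene CIS3 (0.815), and CDC12 like CRP1 (0.782) and DFG5 (0.775). SHS1 was most like MET7 (0.786) and HDA2 (0.706). None of the 10 genes had another of the 10 among its closest pair.

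The next question was how far the genes moved from their level in arrested cells. The 15 arrays taken at 0, 30, 60, 90 and 120 min, times present in every course, were fitted in limma with 1 mean per arrest and time (5 residual degrees of freedom). HOF1 had values on 11 of the 15 arrays, under the 80% required, so 9 genes were tested. The cdc28 comparisons share their 0 min arrays, 1 from each culture.

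In cdc28 cells GIN4 was called at 30 min. At this time it stood at 1.29 in culture B, against -2.02 in B and -1.58 in E at 0 min, and culture E had no value at 30 min. The change of 3.09 ± 0.42 (SE) had an adjusted p of 0.00661, and GIN4 was the 1 gene of 9 called, against 5.32% of all features. This test takes the 1 array at 30 min to vary like the other groups. At 60 min GIN4 stood at -0.07 in B and 0.57 in E, higher than at 0 min by 2.05 ± 0.34 (limma adjusted p = 0.0165), again the 1 gene of 9 called, against 4.42% of all features. With the culture as a block, 3 of 9 were called at 60 min, with CDC3 (0.90, adjusted p = 0.0458) and CDC12 (0.78, adjusted p = 0.0384) added, against 10.4% of all features.

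CDC3 stood at 0.74 in B and 0.50 in E at 60 min, against 0.08 and -0.64 at 0 min, and CDC12 at 0.45 and 0.83, against -0.23 and -0.05. Both cultures were higher at 60 min than at 0 min for each of these septins. The culture block takes B minus E to be the same at every time. Over all features these differences at 0 min did not correlate with later ones (r of -0.070 to 0.009).

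At 90 min MYO1 was called, 1 of 9 against 3.15% of all features. It stood at 0.97 in B and 0.57 in E, against -0.77 in B and -1.58 in E at 0 min, a change of 1.94 ± 0.32 (SE; limma adjusted p = 0.0129). IQG1 stood at 0.28 in B and 0.38 in E, against -1.28 and -0.41 at 0 min, and its difference of 1.18 ± 0.31 did not pass (limma adjusted p = 0.0786). With the culture as a block 5 of 9 passed at 90 min, against 8.32% of all features: MYO1, IQG1 (adjusted p = 0.0491), CDC3 (0.93, 0.0456), CDC12 (0.74, 0.0496) and GIN4 (1.28, 0.0176). HOF1, not tested, stood at 0.75 in E at 90 min, against -1.53 at 0 min, and at 1.60 in B, which has no 0 min value.

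At 120 min 2 of 9 were called, against 2.43% of all features. MYO1 stood at 0.77 in B and 0.26 in E, higher than at 0 min by 1.68 ± 0.32 (SE; limma adjusted p = 0.0307). GIN4 stood at 0.27 in B and 0.47 in E, higher by 2.17 ± 0.34 (0.0155). CYK3 stood at 1.04 in B and 0.85 in E, against 0.21 and -0.22 at 0 min, and its difference of 0.95 ± 0.26 did not pass (limma adjusted p = 0.0960). No gene of the 9 was called lower at any of these times. The median change of the 9 was 0.23, 0.54, 0.74 and 0.68 at 30, 60, 90 and 120 min, against 0.00, -0.02, 0.02 and 0.00 over all features. With 1 array per culture and time these calls lean on single arrays: leaving out the array of culture B at 90 min or at 120 min gave 0 calls at that time. Leaving out any single cdc28 array lowered the calls over all features at each of these times, except the 0 min array of culture B, which raised them. At 30 min GIN4 cannot be tested without the array of culture B, which holds its 1 value there. At 60 min leaving out either culture's array at 0 or 60 min gave 0. At 120 min leaving out the array of culture E at 0 or 120 min also gave 0, and that of B at 0 or 60 min or of E at 60 min gave 1.

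**Figure D5:**
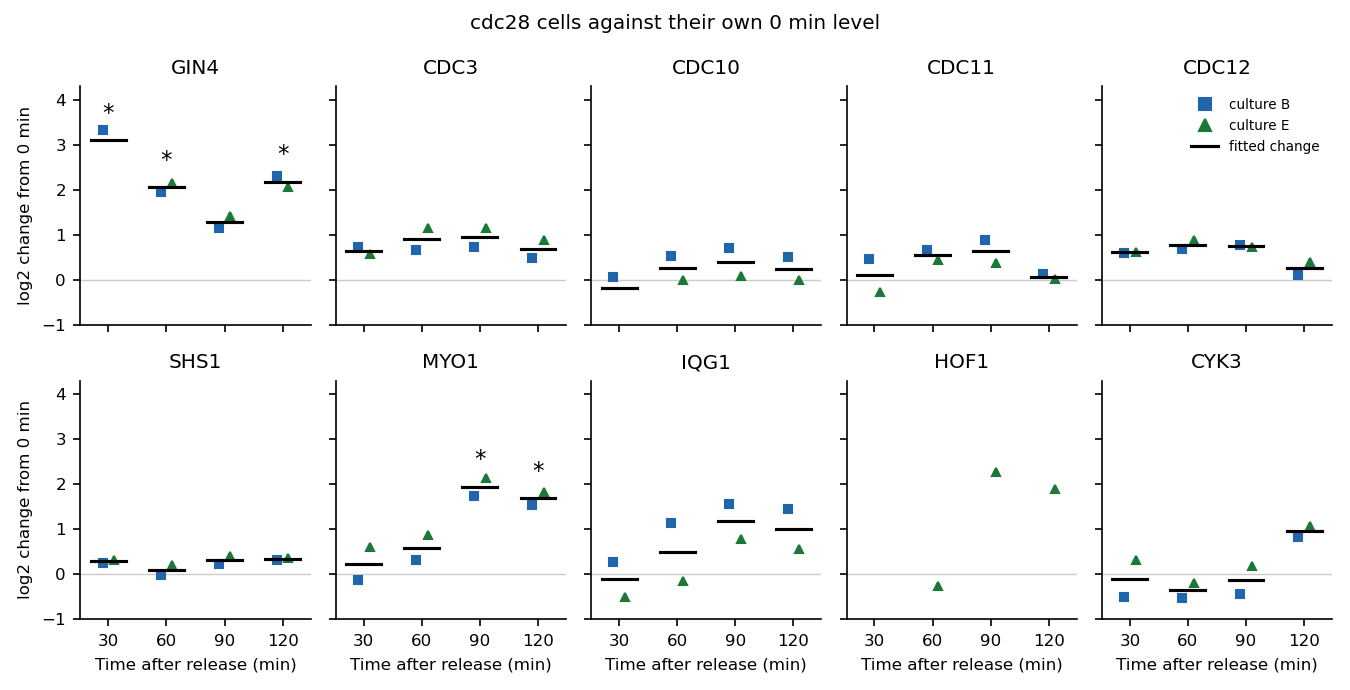
Change in log2 ratio from 0 min (vertical axis) at 30, 60, 90 and 120 min after release (horizontal axis) in cdc28 cells, with a panel for each gene. Squares are culture B, triangles culture E and bars the fitted change, and asterisks mark an adjusted p under 0.05. GIN4 is 3.09 higher at 30 min, MYO1 is 1.94 higher at 90 min, and the septins stay within 1.2 of their 0 min level; HOF1 has no fitted change because it had values on 11 of the 15 arrays, under the 80% required.

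Between the arrests at 0 min limma called 0 of 9 different, alpha factor against cdc28, beside 3.71% of all features, and 2 of the 9 and 1280 features had an unadjusted p under 0.05. These were CDC3, at 0.93 after alpha factor against 0.08 in B and -0.64 in E, with a difference of 1.21 ± 0.44 (SE), and GIN4, at -0.61 against -2.02 and -1.58, with 1.19 ± 0.42. The limma adjusted p was 0.142 for each. With the cdc28 culture as a block both passed, CDC3 at an adjusted p of 0.0297 and GIN4 at 0.0301, against 13.9% of all features. The limit given above for the culture block holds here too. HOF1 stood at -1.67 after alpha factor and -1.53 in culture E. The alpha-factor side is 1 array, whose name ends in B where those of both cdc28 arrays end in T. At 30, 60, 90 and 120 min all array names of culture B end in T and all of culture E in B. A letter effect estimated there cannot be told apart from a difference between the 2 cultures. With the letter as a covariate, estimated from arrays at the other times, 1 of 9 was called, against 7.18% of all features. CDC3 then differed by 1.64 (limma adjusted p = 0.0424), and GIN4 had a difference of 0.67 (0.255).

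Further genes of the same structures were read from lists. Of 15 partners of the ring, such as myosin light chains, tropomyosins, formins and Rho1 with its exchange factors, limma called 4 of 13 tested periodic for alpha factor, 2 of 12 for culture B and 0 of 13 for culture E, where 1 had an unadjusted p under 0.05. These shares stand beside 27.8%, 13.7% and 3.71% of all features. AIM44, for a bud neck protein, was periodic for alpha factor and for culture B, with amplitudes of 1.52 ± 0.25 and 1.23 ± 0.21 (SE; limma adjusted p = 0.000913 and 0.00274). In culture E it had 0.82 ± 0.21 (adjusted p = 0.0888). Its fitted peaks at 2.04, 6.67 and 15.2 min stood beside those of CYK3 at 1.61, 120 and 18.4 min, in cycles of 54, 122 and 95 min. The other periodic partners, picked out here after their values were seen, were the formin gene BNR1 (0.60), the tropomyosin gene TPM2 (0.37) and INN1 (0.22) after alpha factor and RHO1 (0.34) in culture B. INN1, whose protein works with Hof1 and Cyk3 in septum formation, had 0.06 in culture B and 0.12 in culture E.

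Of 19 partners of the septins, such as neck kinases, bud site proteins and Cdc42 effectors, 14 of 17 tested were periodic for alpha factor, 9 for culture B and 6 for culture E, beside the same 27.8%, 13.7% and 3.71% of all features. AXL2, for a bud site protein, had amplitudes of 1.64 ± 0.22, 1.46 ± 0.18 and 1.05 ± 0.20 (SE), and GIC2, for a Cdc42 effector, 1.16 ± 0.19, 1.29 ± 0.13 and 0.75 ± 0.11. KCC4, for a kinase related to Gin4, had 1.14 ± 0.16, 1.02 ± 0.12 and 0.71 ± 0.10. These 3 genes passed in every course, with limma adjusted p between 4.6e-05 and 0.0171. KCC4 peaked at 8.76, 28.5 and 41.8 min, against 12.2, 36.4 and 44.5 min for GIN4.

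In cdc28 cells, by the same limma fit, 5 of 17 septin partners were higher at 30 min than at 0 min: AXL2 (3.01 ± 0.58, SE), GIC2 (2.22 ± 0.39), SWE1 (1.75 ± 0.36), KCC4 (1.70 ± 0.28) and BNI4 (1.33 ± 0.25). Of all features 5.32% were called at 30 min, 135 higher and 161 lower. BUD4, for a protein that holds septins at the neck and marks the bud site, was higher at 60, 90 and 120 min, by 1.56 ± 0.23, 2.52 ± 0.23 and 1.98 ± 0.23. SWE1 was also higher at 60 min, by 1.64 ± 0.36. Of the 17 septin partners 2, 1 and 1 were called at 60, 90 and 120 min, against 4.42%, 3.15% and 2.43% of all features. Of the ring partners, 11 tested at 30 min and 12 at 60, 90 and 120 min, AIM44 was the 1 gene called at any time. It was higher at 120 min by 1.98 ± 0.31. SWE1, BNI4 and BUD4 were picked out after their values were seen.

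Regulators of mitotic exit, which trigger ring closure, passed the test in 8 of 10 tested for alpha factor, 7 of 10 for culture B and 2 of 9 for culture E, where CDC5 and TEM1 passed. The shares of all features were again 27.8%, 13.7% and 3.71%. CDC5, for the polo kinase, had amplitudes of 1.16 ± 0.19, 1.11 ± 0.17 and 0.67 ± 0.13 (SE) and fitted peaks at 36.7, 90.3 and 88.6 min. MOB1, for the partner of the Dbf2 kinase, had 0.97 ± 0.12, 0.59 ± 0.12 and 0.50 ± 0.14, and BFA1, for an inhibitor of the GTPase Tem1, 0.79 ± 0.11, 0.67 ± 0.07 and 0.30 ± 0.09. MOB1 and BFA1 did not pass in culture E (limma adjusted p = 0.139 and 0.215). CDC5 was 2.52 ± 0.30 higher in cdc28 cells at 90 min than at 0 min, beside 1.94 ± 0.32 for MYO1. Of the 9 regulators tested in this fit 1, 1, 2 and 1 were called at 30, 60, 90 and 120 min, all higher. The shares of all features were 5.32%, 4.42%, 3.15% and 2.43%. LTE1 was called at 30 and 60 min, CDC5 and MOB1 at 90 min, and CDC5 at 120 min. LTE1 was picked out after its values were seen.

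SPR3 and SPR28 encode septins used in sporulation. SPR3 had 4 values in the alpha-factor course, between 0.31 and 1.08, and SPR28 had 10, between -0.0034 and 1.03, too few for the test. In culture B SPR3 lay between -0.13 and 0.68 (13 arrays) and SPR28 between -0.16 and 0.95 (15 arrays). In culture E SPR3 lay between 0.04 and 1.59 (15 arrays) and SPR28 between 0.14 and 1.81 (14 arrays). Neither passed the test in a cdc28 culture.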

How the data were processed

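The values analysed are those of the deposited series table. Per the labels, RNA of synchronized cells carried Cy5 and mid-log RNA Cy3. As deposited by the authors, the values are log ratios, read here as log2 of Cy5 over Cy3. Their base, centring, direction, background correction and normalization are not stated in the table or labels. A base of 10 would make the largest ratios implausible, and the high AGA1 ratio after alpha factor fits Cy5 on top. That reading takes the alpha-factor label as given, so the AGA1 value cannot check both the label and the direction. If the base differed, every log2 value and fold would scale with it.

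From 6258 probes, 5570 with 1 gene symbol and 688 with none, 29 genes with several probes were averaged. Gene symbols are those of the platform annotation. Each array was centred on its median. Features with values on at least 80% of arrays were fitted in limma 3.58.1 (R 4.3.3), with Benjamini-Hochberg adjustment over all features tested. Standard errors used each feature's own pattern of missing values, and no value was imputed. Periods from 40 to 160 min were tried at every 1 min, and each course took the period at which a wave explained most variance of its markers, by the median over them. Standard errors of peaks leave out the error of the period. The periodic fit, the fit at the shared times and the fit comparing courses were tested on simulated data with independent normal noise. The correlations and the choice of period were not.

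Earlier results of these data were known when the 10 genes, the partner lists, the tests and the naming rule were chosen. The rule named all 10 genes, for each partner list the 3 genes with the largest median amplitude among those periodic in at least 2 courses, and for each of the 10 the 2 features most like it. The tests use time points of 1 culture, or 1 array per culture and time, so p-values measure the spread between these samples.

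The labels name the cdc28 cultures B and E as biological replicates, so arrays of 1 culture are paired. B minus E differences correlated between times at 0.540 to 0.871 among 30, 60, 90 and 120 min, and at -0.070 to 0.009 between 0 min and the others. Array names of B and E end in the same letter at 0 min and in different letters at those later times. These correlations therefore cannot tell a shared culture from a shared array letter. The number of arrays limits the precision. Other periods, trends, normalizations, value filters, array letter or number, the culture as a block, and leaving out single arrays were tried. Promoter and protein sequences were not used here.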

Additional observations from a re-analysis of the deposited data

How the results depend on the processing

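The counts of periodic genes depended on the period and the trend. After alpha factor 8 genes became 5 with a period 10% shorter and 5 without a time trend, and 7 to 8 when single arrays were left out. In culture B 6 became 3 with a period 10% shorter and 0 at the period of E, and 6 to 8 without single arrays. In culture E 3 became 0 and 5 with a period 10% shorter and longer, 1 without a trend, 5 with a quadratic trend and 5 at the period of B, and 2 to 5 without single arrays (2 without that at 90 or 100 min, 5 without that at 160 min). Over all features the period 10% shorter gave 477 calls after alpha factor, against 1490, 438 in B, against 766, and 11 in E, against 212; the period of E gave 0 in B and that of B 500 in E. Without a trend the count after alpha factor was 1042. In E it was 308 with the longer period, 106 without a trend, 350 with a quadratic trend and 404 with quantile normalization. With single arrays left out, 19.9% to 29.8% of all features passed after alpha factor, 10.6% to 17.8% in B and 2.27% to 5.53% in E. The period 10% shorter ended the calls of MYO1, CYK3 and CDC12 after alpha factor, MYO1, HOF1 and CDC10 in B, and IQG1, CYK3 and GIN4 in E. No trend ended those of CYK3, CDC10 and CDC12 after alpha factor and IQG1 and CYK3 in E. At the period of B GIN4 lost its call in E. AIM44 in culture B at the period of E had an amplitude of 0.47 (adjusted p = 0.829) and a fitted peak at 31.9 min, against 6.67 min.

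Between the arrests 0 calls became 2 with the cdc28 culture as a replicate block and 1 with the array letter as a covariate, over all features 778 and 401, against 207. The culture block gave 3 calls at 60 min and 5 at 90 min, with 581 and 465 over all features, against 247 and 176, and changed no count among the 9 genes at 30 and 120 min, where it gave 608 and 417 over all features, against 296 and 136. The array letter gave 2 at 60 min and 5 at 90 min, with 533 and 488 over all features, and changed no count among the 9 at 30 and 120 min, with 645 and 350. In this fit the letter cannot be told apart from the culture. Values required on all 15 arrays, which drops GIN4, gave 0 at 30 min, 0 at 60 min and 1 at 120 min, against 5.48%, 4.54% and 2.35% of all features. Quantile normalization called 14 features between the arrests and 96 at 30 min. Leaving out single arrays gave 0 between the arrests, 0 to 1 at 30 (where the 0 comes from GIN4 not being tested), 60 and 90 min and 0 to 2 at 120 min. Course differences counted from release instead of the G1/S peak gave 5 genes between alpha factor and E, with 661 features, and 3 between B and E, with 219. The causes were not tested. Of all other values for single genes, 2077 stayed on their side of the threshold, 64 lost the call and 50 gained one.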
